A study of Homo sapiens with 15 samples.

Results

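Small-subunit cytosolic ribosomal protein genes encode the proteins of the 40S subunit, and 28 of them were followed here among the 55773 rows of a table of normalized counts from HEK293 cells. The members were a fixed list of gene symbols, RPSA, FAU and 26 genes named RPS, and rows named as pseudogenes were left out. HEK293 is an established human embryonic kidney line. The study compared cells that overexpressed the CCCH zinc-finger proteins ZC3H7A or ZC3H7B, and cells depleted of both, with their own controls, and its title names codon-dependent control of mRNA translation and stability. RNA-seq libraries were made from 15 samples, 3 in each of 5 groups. For overexpression, Flp-In T-REx 293 cells were given doxycycline at 1 µg/mL for 24 h, and 3 groups carried Flag/HA-ZC3H7A, Flag/HA-ZC3H7B or, as the control, Flag/HA alone. Poly(A) RNA of these cells came from a hypotonic lysate made for polysome isolation and was sequenced from libraries of a TruSeq v2 kit. In the depletion experiment, Parental cells were wild type with the control hairpin shCTR, and DD cells combined ZC3H7A-KO with shZC3H7B. Both were kept under puromycin at 5 µg/mL until 2 passages before collection, and a company made their libraries with another protocol. The labels do not say how many clones each line came from. The labels call the overexpression replicates independent and say nothing of this for Parental and DD, so the p-values of the depletion experiment measure the spread between those samples, which may be technical.

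The 40S subunit binds the mRNA, scans it for the start codon and hosts the decoding of each codon by a tRNA. Its proteins are made in equal numbers and assembled on the 18S rRNA, a process that begins in the nucleolus, so their mRNAs are abundant and are usually controlled together. Most of these mRNAs begin with a 5′ terminal oligopyrimidine (TOP) tract, a cytosine followed by a run of pyrimidines, through which mTOR signalling and LARP1 control their translation and stability.

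The annotated first bases of the transcripts show this shared feature for most of the genes. What follows rests on annotated starts alone, so a gene without the tract there may still carry it. RefSeq windows on GRCh38.p14 matched 25 of the 28 genes, and RPS2, RPS15A and RPS20 had none. An annotated start with a C and at least 4 further pyrimidines was found in 19 of these 25 genes (76.0%), in 28 of 38 large-subunit genes (73.7%) and in 898 of 14163 coding genes (6.34%). The genes shown are those with the largest changes in the comparisons below and others without the tract at the annotated start. Each has 10 bases before that start and 20 from it. Capitals mark the pyrimidine run that begins at the start. The windows are RPS16 (chr19:39435930-39435959, minus strand), RPS21 (chr20:62387093-62387122, plus strand), RPS19 (chr19:41860245-41860274, plus strand), RPS23 (chr5:82278335-82278364, minus strand), RPS3A (chr4:151099618-151099647, plus strand), RPS12 (chr6:132814559-132814588, plus strand), RPS15 (chr19:1438386-1438415, plus strand), RPS26 (chr12:56041908-56041937, plus strand) and RPS4X (chrX:72277229-72277258, minus strand).
RPS16: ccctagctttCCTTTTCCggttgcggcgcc
RPS21: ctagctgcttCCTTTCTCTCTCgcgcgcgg
RPS19: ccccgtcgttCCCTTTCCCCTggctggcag
RPS23: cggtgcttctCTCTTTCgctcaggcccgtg
RPS3A: cccacttccgCCCTTTTggctctctgacca
RPS12: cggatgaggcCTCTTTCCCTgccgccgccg
RPS15: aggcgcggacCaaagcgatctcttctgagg
RPS26: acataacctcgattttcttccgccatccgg
RPS4X: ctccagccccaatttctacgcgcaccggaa

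Runs of 7 to 12 pyrimidines opened RPS16, RPS21, RPS19, RPS23, RPS3A and RPS12 at these starts. RPS15 had a single C there, and RPS26 and RPS4X began with a purine. The letters CTTCCG, the core of the site bound by ETS transcription factors, were found on either strand of the 300-base windows (250 bases before the start and 50 after it) of 18 of the 25 genes (72%) and of 4253 of 14163 coding genes. These are matches of letters and do not show use of a site.

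Libraries held 45.5 to 57.6 M reads for overexpression and 12.2 to 15.5 M for depletion. A normalized count is the number of reads divided by a factor for the library, and the levels given below are in this unit. ZC3H7A was 10546, 10131 and 12898 with ZC3H7A and 3179.6, 3374 and 3223 in control, and ZC3H7B was 28082, 26712 and 26632 with ZC3H7B and 5951, 5818 and 6044 in control. The other gene of the pair differed from control too, without overlap. ZC3H7B was 8252, 8288 and 7390 in the ZC3H7A libraries, above control. ZC3H7A was 1935, 2049 and 2113 in the ZC3H7B libraries, below control. Libraries labelled DD had ZC3H7B at 999.8, 1168 and 1083 against 5948, 6484 and 6958 in Parental, while ZC3H7A was 1639.9, 1561 and 1771 in DD and 1585, 1528 and 1684 in Parental. The RNA level of ZC3H7A thus did not separate the knockout from Parental, and whether the counted reads lie outside the altered part of the gene was not tested. Of 10 HEK293 lineage markers, 10 had a mean of at least 10 in each overexpression group and 9 in Parental and DD. No keratin marker reached 10 in any group, and 1 endothelial marker did, in DD alone. The summed leukocyte markers were 48.1 to 53.9 in control libraries, 61.6 to 88.8 under ZC3H7A, 24.7 to 37.9 under ZC3H7B, 32.0 to 45.7 in Parental and 80.6 to 103 in DD, with PTPRC and CD3E at 0 in all libraries of Parental and DD. The fibroblast markers summed to 194 to 229 in control libraries, 303 to 326 under ZC3H7A, 297 to 348 under ZC3H7B, 244 to 353 in Parental and 278 to 303 in DD. Their part in the results below was not tested.

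With ZC3H7A overexpressed, 23 of the 28 small-subunit genes rose against control, 1 fell (RPS3A) and 4 were not called (RPS7, RPS23, RPS24 and RPS27A). With ZC3H7B overexpressed, 23 rose, 1 fell (RPS3A) and 4 were not called (RPS7, RPS10, RPS24 and RPS27A). A gene was called at a Benjamini-Hochberg adjusted p under 0.05 from limma over all genes tested, and the fold changes are differences of log2(normalized count + 1). Among the 17651 genes tested, 34.7% were called higher and 41.2% lower with ZC3H7A, 75.9% in all. With ZC3H7B 32.0% were called higher and 37.6% lower, 69.6% in all. The members' median log2 fold change was 0.34 (range -0.34 to 0.99) with ZC3H7A, where that of all genes was -0.07. With ZC3H7B it was 0.35 (range -0.48 to 0.89), where that of all genes was -0.06. Both comparisons use the same 3 control libraries, and in bulk samples fewer cells of a type and less RNA per cell cannot be told apart. The 3 libraries of a group lay entirely above control for 23 members in each comparison and entirely below it for 1, beside 35.7% of all genes above and 42.2% below with ZC3H7A and 35.3% above and 41.8% below with ZC3H7B.

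**Figure D1:**
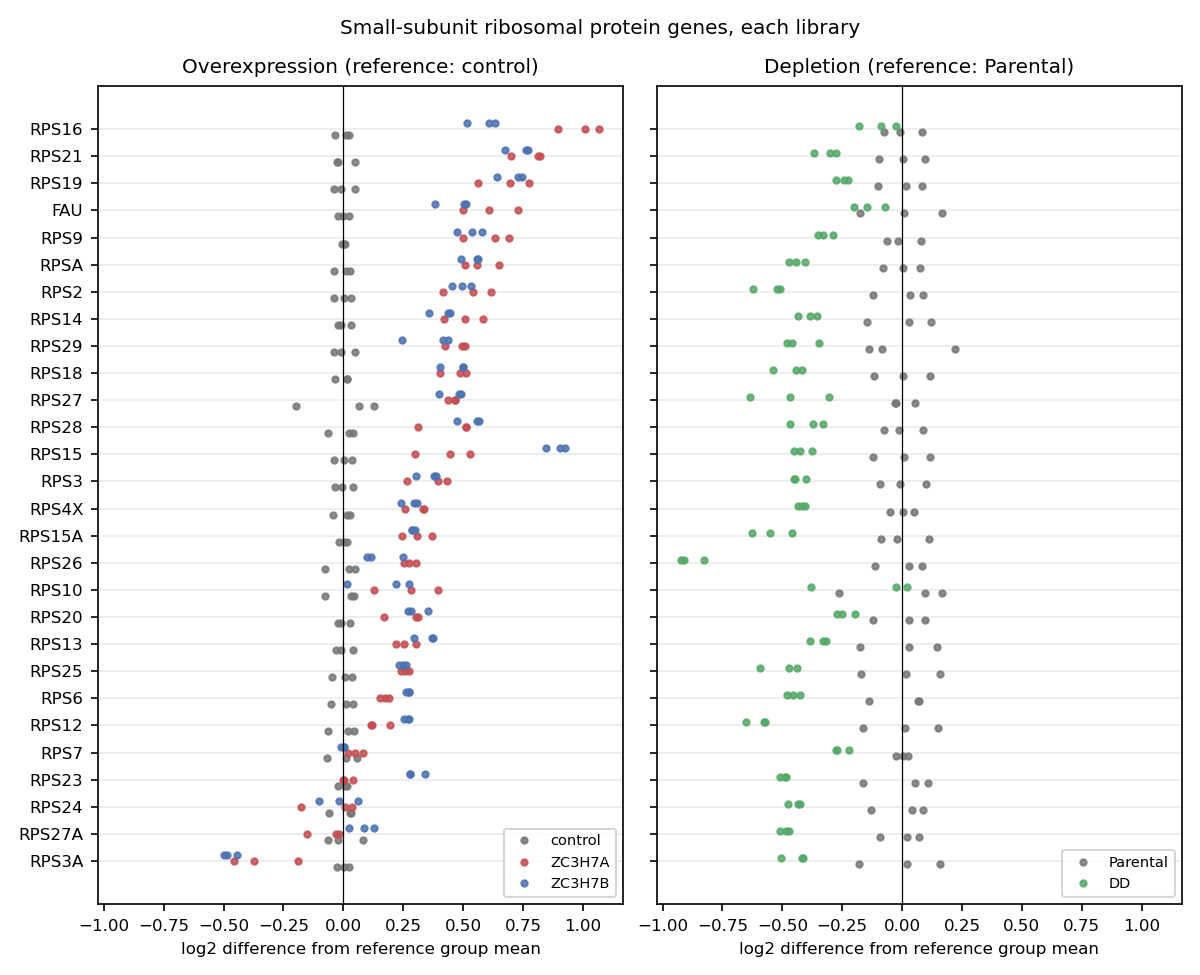
Log2 difference of each library from the mean of its reference group (horizontal axis, control on the left and Parental on the right) for each of the 28 genes (vertical axis, ordered by the ZC3H7A change), with 1 point per library. With either protein overexpressed the points of most genes lie to the right of control and those of RPS3A to the left, and the DD points lie left of Parental for 25 genes and overlap it for RPS16, FAU and RPS10.

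Scaling by library totals in place of the authors' factors lowered the median of all genes from -0.07 to -0.18 with ZC3H7A and from -0.06 to -0.14 with ZC3H7B. On that scale the members' medians were 0.23 and 0.27, with 20 or more members higher in each comparison. Of all 17651 genes tested, 5158 were called higher and 8382 lower with ZC3H7A on library totals. With ZC3H7B 4729 were called higher and 7678 lower. Also on that scale RPS23, RPS24 and RPS27A joined RPS3A among the genes called lower with ZC3H7A.

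The members are described by where their proteins lie on the subunit, an order taken from general knowledge that forms no list and was not tested. RPS3, RPS2, RPS9 and FAU, whose proteins lie at or near the mRNA entry channel, rose with each protein. RPS3, which forms part of the channel in the head, was 28359, 29938 and 28949 in the control libraries, 39208, 38262 and 34917 under ZC3H7A and 37799, 38018 and 35832 under ZC3H7B, and 38283, 41251 and 36072 in Parental and 28200.1, 29150.4 and 28116 in DD. RPS2, on the body side of the channel, was 14346, 14764 and 15046 in the control libraries, 22539, 21429.9 and 19660.4 under ZC3H7A and 21298, 20755 and 20176 under ZC3H7B, and 72323, 75107 and 65058 in Parental and 49615, 49253 and 45945 in DD. RPS9, which also lies at the entry side, was 10926, 10947 and 10854 in the control libraries, 17631, 16902 and 15424 under ZC3H7A and 16293, 15818 and 15145 under ZC3H7B, and 14705, 15711 and 14215 in Parental and 12176, 11827 and 11663 in DD. Every overexpression library of these 3 genes lay above every control library, and every DD library lay below every Parental library. FAU, which encodes the 40S protein eS30 fused to a ubiquitin-like protein, was 5047, 5129 and 5217 in the control libraries, 8507, 7814 and 7257 under ZC3H7A and 7312, 7269 and 6686 under ZC3H7B. Its fold change was 0.61 (SE 0.0562, adjusted p = 1.00e-06) with ZC3H7A and 0.47 (SE 0.0562, adjusted p = 1.37e-05) with ZC3H7B. In the depletion experiment FAU was 2962, 3303 and 2609.9 in Parental and 2661, 2805 and 2559 in DD, and these libraries overlapped (log2 fold change -0.14, adjusted p = 0.255).

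RPS16 and RPS15, whose proteins reach from the head towards the decoding site, had the largest rises of the 28 genes, RPS16 with ZC3H7A and RPS15 with ZC3H7B. RPS16, whose tail reaches the tRNA in the P site, was 39781, 41413 and 41037 in the control libraries, 85435, 81882 and 75896 under ZC3H7A and 63161, 62179 and 58212 under ZC3H7B. That is a log2 fold change of 0.99 (SE 0.0471, adjusted p = 5.87e-09) with ZC3H7A, or 1.99-fold, and of 0.59 (SE 0.0471, adjusted p = 5.20e-07) with ZC3H7B. RPS15, whose tail lies near the A site, was 7061, 7263 and 7443 in the control libraries, 10474, 9867 and 8925 under ZC3H7A and 13582, 13784 and 13023 under ZC3H7B. Its log2 fold change was 0.42 (SE 0.0535, adjusted p = 1.45e-05) with ZC3H7A and 0.89 (SE 0.0535, adjusted p = 5.39e-08) with ZC3H7B. The ZC3H7A change of RPS15 was no longer called after removal of a trend with the A+T content of transcripts, or with codons ending in A or T. RPS19, the gene most often mutated in Diamond-Blackfan anaemia, was 32102, 34139 and 32846 in the control libraries, 56448, 53476 and 48823 under ZC3H7A and 55415, 54797 and 51463 under ZC3H7B, with log2 fold changes of 0.68 and 0.71. In the depletion experiment RPS16 was 50550.2, 53928 and 48239 in Parental and 47875, 49945 and 44917 in DD and did not pass the test, RPS15 was 30289.7, 32596 and 27654 in Parental and 23174, 22050.0 and 22399 in DD, and RPS19 was 40383, 42304 and 37236 in Parental and 34103, 33709 and 32978 in DD.

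RPS18, RPS29, RPS20, RPS25 and RPS12, also genes for proteins of the head, rose with each protein and fell in DD. RPS18 was 18288, 18936 and 18908 in the control libraries, 26696, 26220.5 and 24750.2 under ZC3H7A and 26487, 26487 and 24734 under ZC3H7B, and 12634, 13643 and 11607 in Parental and 9273, 9436 and 8674 in DD. RPS29, a zinc-binding protein, was 3714, 3865 and 3636 in the control libraries, 5321, 5270.3 and 5015 under ZC3H7A and 4989, 5056 and 4425 under ZC3H7B, and 3062, 3929.6 and 3174 in Parental and 2647, 2447 and 2412 in DD. RPS20, which is ubiquitinated when ribosomes collide, was 4885, 5056 and 4927 in the control libraries, 6159, 6112 and 5581 under ZC3H7A and 6031, 6336 and 5975 under ZC3H7B, and 11801, 12378 and 10629 in Parental and 10101, 9718 and 9588 in DD. These 3 genes rose without overlap in both overexpressions and fell without overlap in DD, although the fall of RPS20 was no longer called when any single DD library or Parental replicate 2 was left out, with the replicate number as a block or with the trend on transcript length removed (adjusted p of 1.90e-04 to 0.186 over the alternatives). RPS19 lost its call in DD without any single one of the same libraries and with the block (adjusted p of 1.44e-04 to 0.0829). RPS25, at the tRNA exit side of the head, was 3455, 3667 and 3593 in the control libraries, 4214, 4273 and 4313 under ZC3H7A and 4193, 4283 and 4250.3 under ZC3H7B, and 8544, 9425 and 7514 in Parental and 6239.5, 6096 and 5599 in DD. RPS12 was 8776, 9443 and 9296 in the control libraries, 10495, 9974 and 9935 under ZC3H7A and 11094, 11068 and 10934 under ZC3H7B, and 2689, 2956 and 2383 in Parental and 1791, 1786 and 1696 in DD. The rise of RPS12 with ZC3H7A, 0.14, was no longer called with library totals as the scale or with the trend on coding length removed, and was at -0.000242 with the A+T trend removed.

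RPS10, another target of collision-linked ubiquitination, was 423, 389.8 and 419 in the control libraries, 499.7, 541 and 448 under ZC3H7A and 479, 497 and 415 under ZC3H7B, with a log2 fold change of 0.27 (SE 0.0828, adjusted p = 0.0106) and of 0.17 (SE 0.0828, adjusted p = 0.084). The ZC3H7B libraries overlapped control, and the ZC3H7A call was lost with library totals as the scale and with the trend on A+T share or coding length removed (adjusted p of 6.11e-04 to 0.751 over the alternatives). RPS23, a protein of the decoding centre, was 7761, 7900.2 and 7956 in the control libraries, 7886, 8098 and 7873 under ZC3H7A and 9537, 9958 and 9557 under ZC3H7B. It rose with ZC3H7B, 0.30 (SE 0.0350, adjusted p = 1.09e-05), and did not pass the test with ZC3H7A, 0.01 (SE 0.0350, adjusted p = 0.717). RPS27A, which encodes ubiquitin fused to the 40S protein eS31, was 3854, 4263 and 3964 in the control libraries, 3623, 3937 and 3978 under ZC3H7A and 4087, 4267 and 4398 under ZC3H7B, with overlap between each overexpression and control. In the depletion experiment RPS23 was 30485, 31634 and 26177 in Parental and 20891, 20624 and 20948 in DD and RPS27A was 5289, 5475 and 4893 in Parental and 3729, 3759.9 and 3657 in DD, without overlap, while RPS10 overlapped at 253, 325 and 342 in Parental and 309, 299 and 234 in DD.

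RPSA, RPS21, RPS14, RPS28, RPS27 and RPS26, whose proteins lie on the platform or around the mRNA exit, rose with each protein, and RPS3A fell. RPSA, also known as the laminin receptor, was 3784, 3919 and 3973 in the control libraries, 6104, 5729.7 and 5536 under ZC3H7A and 5738, 5726 and 5471 under ZC3H7B, and 19015, 19964 and 17899 in Parental and 14301, 13663 and 13948 in DD. RPS21, its neighbour on the subunit, was 7592, 7991 and 7603 in the control libraries, 13667, 13579.5 and 12563 under ZC3H7A and 13117, 13184 and 12325 under ZC3H7B, and 8635, 9195 and 8049.7 in Parental and 7113, 6999 and 6677 in DD. RPS14, whose loss of 1 copy marks the 5q- syndrome, was 25414, 26416 and 25606 in the control libraries, 38695, 36741 and 34495 under ZC3H7A and 35154, 34931 and 33073 under ZC3H7B, and 25049.7, 26746 and 22197 in Parental and 19236, 18172 and 18823 in DD. All 3 were above control in every overexpression library and below Parental in every DD library. The rises of RPS21, 0.78 (SE 0.0447, adjusted p = 2.18e-08) with ZC3H7A and 0.74 (SE 0.0447, adjusted p = 5.92e-08) with ZC3H7B, were second in size, after RPS16 with ZC3H7A and after RPS15 with ZC3H7B. RPS28 was 1092, 1159 and 1172 in the control libraries, 1628, 1626 and 1416 under ZC3H7A and 1687, 1584 and 1678 under ZC3H7B, and 2096, 2347 and 2189 in Parental and 1708, 1756 and 1597 in DD. RPS27, a zinc-finger protein, had few reads in the overexpression experiment and was 121, 145 and 152 in the control libraries, 192, 188 and 192 under ZC3H7A and 194, 195 and 184 under ZC3H7B, against 2305, 2441 and 2309 in Parental and 1699, 1905 and 1512 in DD. Both of these genes fell in DD.

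RPS26, which sits at the mRNA exit and is carried to the pre-ribosome by the chaperone TSR2, was 339, 363 and 369 in the control libraries, 431, 425 and 440.0 under ZC3H7A and 424, 387 and 382 under ZC3H7B. Its rise was 0.28 (SE 0.0611, adjusted p = 0.0013) with ZC3H7A. With ZC3H7B it was 0.15 (SE 0.0611, adjusted p = 0.0398), a call lost in 10 of the alternatives: with no filter, on library totals, with the replicate block, with the trend on A+T content, transcript length or coding length removed, and without any single one of control replicates 1 and 2 or ZC3H7B replicates 1 and 2 (adjusted p of 0.00402 to 0.309 over the alternatives). RPS3A, on the platform beside RPS26, ran the other way and was 491, 509 and 500.3 in the control libraries, 364, 386 and 438 under ZC3H7A and 357, 367 and 353 under ZC3H7B. Its fold change was -0.34 (SE 0.0680, adjusted p = 6.17e-04) with ZC3H7A and -0.48 (SE 0.0680, adjusted p = 5.46e-05) with ZC3H7B. All 6 overexpression libraries of RPS3A lay below all 3 control libraries, and the ZC3H7A fall was no longer called after the trend with codons ending in A or T was removed.

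Of genes for proteins of the subunit body, RPS4X, RPS6, RPS13 and RPS15A rose with each protein, and RPS7 and RPS24 did not pass the test. RPS4X was 45310.5, 47611 and 47194 in the control libraries, 59059, 58816 and 55841 under ZC3H7A and 57799, 57364 and 55139.5 under ZC3H7B, and 83222, 85873 and 80144 in Parental and 62246, 62731 and 61355 in DD. RPS6, the substrate of S6 kinase, was 29481, 31368 and 30770.4 in the control libraries, 34802, 34418 and 33966 under ZC3H7A and 36603, 36924 and 36944 under ZC3H7B, and 37401, 37576 and 32528 in Parental and 26092, 25589.5 and 26610.1 in DD. RPS13 was 5877, 6181 and 5976 in the control libraries, 7409.6, 7156 and 6995 under ZC3H7A and 7765, 7781 and 7368 under ZC3H7B, and 5773, 6259 and 5015 in Parental and 4499, 4539 and 4329 in DD. RPS15A was 2863, 2824 and 2888 in the control libraries, 3538, 3698 and 3391 under ZC3H7A and 3491, 3489 and 3513 under ZC3H7B, and 6019, 6592 and 5736 in Parental and 4169.8, 4435 and 3958 in DD. These 4 genes rose by 0.17 to 0.31 with ZC3H7A and by 0.27 to 0.35 with ZC3H7B, and all 4 fell in DD, without overlap. The rise of RPS6 with ZC3H7A was no longer called on library totals. RPS7 was 2629, 2869 and 2779.9 in the control libraries, 2918, 2793 and 2852 under ZC3H7A and 2764, 2762 and 2742 under ZC3H7B, and RPS24 was 15415, 16348 and 16391 in the control libraries, 14204, 16124 and 16460.3 under ZC3H7A and 14969.5, 15832 and 16762 under ZC3H7B, and the libraries of each overexpression overlapped control for both. Their log2 fold changes were 0.05 and -0.04 with ZC3H7A and -0.000809 and -0.02 with ZC3H7B.

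Set directly against each other, the overexpressions differed for 6 of the 28 genes, where 44.3% of all genes tested were called in either direction. RPS16 was higher with ZC3H7A, by 0.41 (SE 0.0471, adjusted p = 2.64e-05), where 23.9% of all genes were called higher. RPS15, RPS23, RPS27A, RPS12 and RPS6 were lower with ZC3H7A, where 20.4% of all genes were called lower. RPS15 differed by -0.47 (SE 0.0535, adjusted p = 2.34e-05) and RPS23 by -0.28 (SE 0.0350, adjusted p = 4.23e-05). The differences of RPS27A, RPS12 and RPS6 were -0.15, -0.12 and -0.10, with adjusted p of 0.0387, 0.0238 and 0.0326, and each lost its call in at least 7 of the alternatives run. The members' median difference was 0.01. The ZC3H7A libraries lay entirely above the ZC3H7B libraries for 3 genes and entirely below them for 5, as they did for 26.6% and 22.5% of all genes. The number of members that differed was 10 without ZC3H7A replicate 3 and 3 without ZC3H7B replicate 2 or ZC3H7B replicate 3. The calls over all genes moved as well. Without ZC3H7A replicate 3, 4852 of 17504 genes were called higher and 4625 lower. Without ZC3H7B replicate 2 these were 3482 and 2842 of 17594, and without ZC3H7B replicate 3 they were 3605 and 2821 of 17582.

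In the libraries labelled DD, 25 of the 28 genes fell against Parental, none rose, and RPS10, RPS16 and FAU were not called. Among the 18473 genes tested, 14.8% were called lower and 14.7% higher. All 28 fold changes were below 0, from -0.89 to -0.10, with a median of -0.43 beside 0.01 over all genes. The DD libraries lay entirely below Parental for 25 genes, as they did for 21.5% of all genes, and entirely above it for no member and 21.6% of all genes. The largest fall was that of RPS26, which was 2982, 3091 and 2701 in Parental and 1555, 1647 and 1538 in DD, a log2 fold change of -0.89 (SE 0.0742, adjusted p = 6.13e-06). RPS12 fell by 0.60 (SE 0.0836, adjusted p = 2.69e-04), RPS2 by 0.55 (SE 0.0773, adjusted p = 2.85e-04) and RPS15A by 0.55 (SE 0.0731, adjusted p = 2.06e-04). Apart from RPS26, the called falls lay between -0.60 and -0.24, and those of RPS7, RPS20 and RPS21 were no longer called with the trend on transcript length removed. RPS3A fell here too, being 15049, 16549 and 13069 in Parental and 11131, 10450.5 and 11082 in DD, -0.45 (SE 0.0833, adjusted p = 0.0019). RPS7 was 7396, 7504 and 7255 in Parental and 6109, 6333 and 6089.6 in DD and RPS24 was 17316, 17903 and 15402 in Parental and 12116, 12545 and 12461 in DD, and both fell, with -0.26 and -0.44, although neither was called in the overexpressions. No DD library reached the lowest Parental library for any of these genes.

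Of the 28 genes, 20 rose in both overexpressions and fell in DD, as did 4.65% of the 16144 genes tested in both experiments (750 genes). The overexpressions share their control libraries. RPS3A fell in all 3 comparisons with a control. The overexpression and depletion experiments share no library. Across the 28 genes the ZC3H7A and DD fold changes had Pearson's r of 0.37 and Spearman's rho of 0.42, and the ZC3H7B and DD fold changes had 0.23 and 0.37. These are descriptions over genes, which are not independent, with normalization shared within each experiment. RPS16, with the largest rise with ZC3H7A, had the smallest change in DD at -0.10, and RPS26, with the largest fall, rose by 0.28 and 0.15.

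**Figure D2:**
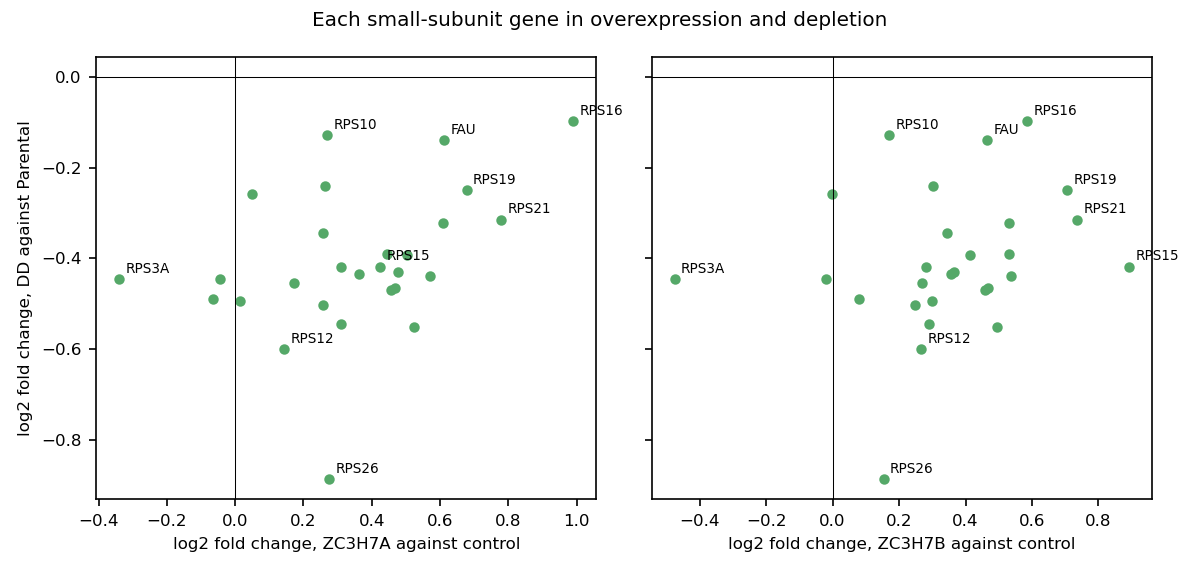
Log2 fold change of each small-subunit gene in DD against Parental (vertical axis) by its log2 fold change with ZC3H7A (left) or ZC3H7B (right) against control (horizontal axis), 1 point per gene. All 28 points lie below 0 on the vertical axis and 25 lie right of 0 on each horizontal axis, with RPS3A alone at the far left.

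Among the members, the overexpression changes were lower for genes with more codons ending in A or T. The percent of codons with A or T as the third base, from the GENCODE 29 coding sequence, ran from 6.21% in RPS15 to 60.8% in RPS23, with a median of 43.8%. Across the 28 genes this share and the fold change had r of -0.64 and rho of -0.77 with ZC3H7A, and r of -0.69 and rho of -0.71 with ZC3H7B. With the 2 genes farthest from the median share left out, r was -0.76 and -0.61. Over all 13601 coding genes tested, r was -0.45 with ZC3H7A and -0.41 with ZC3H7B. In DD, r was -0.23 over the members and 0.02 over 13236 coding genes. The share is tied to the base composition of the whole transcript, so these are descriptions.

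In the overexpressions the members' medians lay above those of all genes of like codon ends. The 4 members with under 30% of codons ending in A or T had a median of 0.49 with ZC3H7A and 0.53 with ZC3H7B, where all genes of that class had 0.34 and 0.21. The 8 members over 50% had 0.08 and 0.27, where all genes of that class had -0.43 and -0.34. In DD the members' class medians were between -0.45 and -0.28, while those of all genes were between 0.02 and 0.07. These differences are given as medians, with no test.

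**Figure D3:**
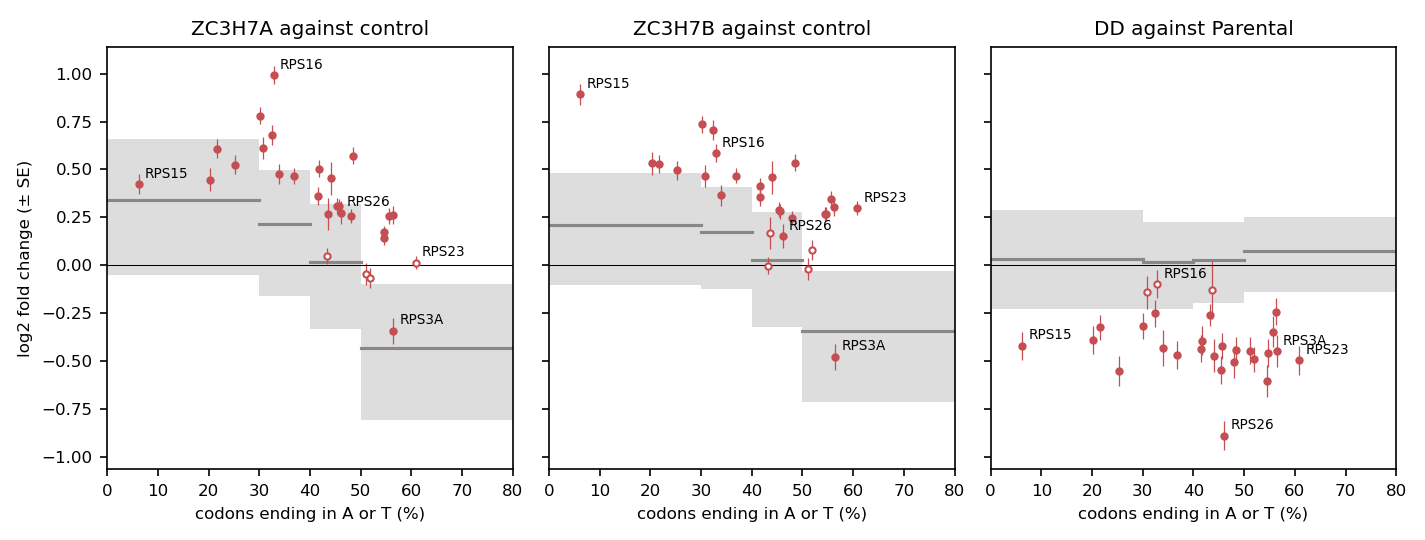
Log2 fold change with its SE (vertical axis) by percent of codons ending in A or T (horizontal axis) for the 28 genes in 3 comparisons, with filled points for called genes and open points for others. Grey lines and bands give the median and the middle 50% of all tested coding genes in 4 classes of codon ends, and the members lie mostly above the line in the overexpressions and below it in DD.

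The openings of 4 coding sequences show the range of codon ends among the genes that stood out. Each is the first 30 codons from GENCODE 29 on GRCh38, introns removed, and capitals mark A or T at the third base of a codon. They are RPS15 (chr19:1438426-1440019, plus strand), RPS16 (chr19:39435667-39435895, minus strand), RPS23 (chr5:82277767-82278323, minus strand) and RPS3A (chr4:151099653-151100512, plus strand).
RPS15: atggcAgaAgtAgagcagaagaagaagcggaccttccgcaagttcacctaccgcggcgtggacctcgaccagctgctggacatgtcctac
RPS16: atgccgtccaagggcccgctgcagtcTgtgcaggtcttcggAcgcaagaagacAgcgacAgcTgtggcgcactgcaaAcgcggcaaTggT
RPS23: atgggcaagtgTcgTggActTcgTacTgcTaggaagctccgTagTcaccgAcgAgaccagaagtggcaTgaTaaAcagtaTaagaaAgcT
RPS3A: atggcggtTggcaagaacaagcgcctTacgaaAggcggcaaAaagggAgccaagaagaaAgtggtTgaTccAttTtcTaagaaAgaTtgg

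Of these 30 codons, 3 end in A or T in RPS15, 8 in RPS16, 17 in RPS23 and 13 in RPS3A. RPS15 and RPS23 are the extremes of the members by this measure over the whole coding sequence, and both were lower with ZC3H7A than with ZC3H7B. RPS23 and RPS3A differed in direction with ZC3H7B although 60.8% and 56.4% of their codons end in A or T.

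Members with and without the pyrimidine tract at an annotated start had medians close to each other. The 19 genes with a C and at least 4 pyrimidines at a start had medians of 0.36 with ZC3H7A, 0.36 with ZC3H7B and -0.44 in DD. The 6 genes with another start (RPS4X, RPS7, RPS15, RPS26, RPS28 and RPS29) had 0.37, 0.32 and -0.42. RPS3A has the tract at its annotated start and fell in every comparison with a control. RPS15 lacks it at its annotated start and rose most with ZC3H7B. RPS19 and RPS27A count among the genes with the tract but also have annotated starts without it. Which starts these cells used was not tested. The 6 genes may carry the tract at a start in use, so these medians cannot compare its presence with its absence.

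Summed over the 28 genes, the share of all reads was 1.27% ± 0.0251 (SD, n = 3) in control, 1.65% ± 0.0492 with ZC3H7A and 1.62% ± 0.0368 with ZC3H7B. It was 1.85% ± 0.117 in Parental and 1.45% ± 0.0119 in DD. Every ZC3H7A and ZC3H7B library lay above every control library, and every DD library lay below every Parental library. The large-subunit genes took 2.16% in control libraries, 2.76% under ZC3H7A, 2.71% under ZC3H7B, 3.05% in Parental and 2.33% in DD. The mitochondrially encoded RNAs took 4.97% to 5.31% of reads in control, 4.59% to 4.68% with either overexpression, 2.11% to 3.08% in Parental and 2.24% to 2.38% in DD. All 15 samples are labelled as poly(A) RNA. The 7SK RNA, the 7SL RNAs and the RNAs of RNase P and RNase MRP together took 5.76% to 6.58% in Parental, 5.60% to 5.89% in DD and at most 0.00539% in the overexpression experiment.

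**Figure D4:**
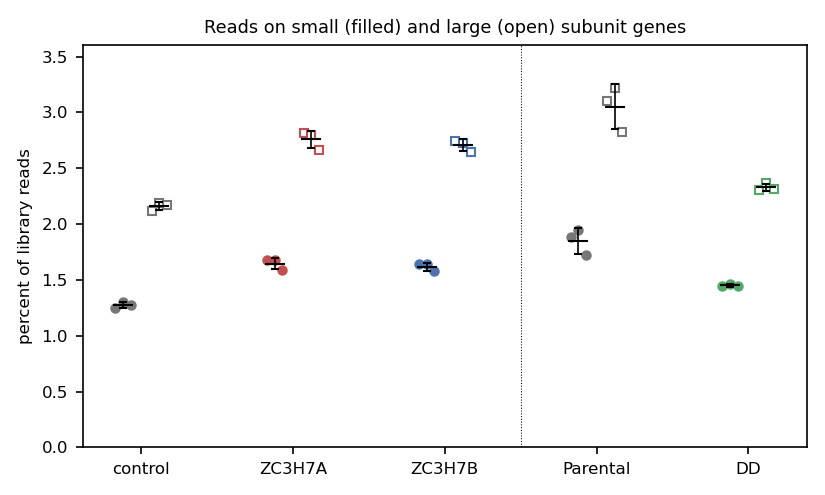
Percent of all reads in a library (vertical axis) on the 28 small-subunit genes (filled circles) and the 47 large-subunit genes (open squares), by group, with 1 point per library and the mean and SD in black. The overexpression groups lie above control and DD lies below Parental for both subunits, and the dotted line divides the experiments.

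Within a group the genes moved together from library to library. Parental replicate 2 was the highest of its group for 27 of the 28 genes and Parental replicate 3 the lowest for 24. Control replicate 1 was lowest for 24 genes, and ZC3H7A replicate 3, ZC3H7B replicate 3 and DD replicate 3 were each lowest for 21. The share of reads on the members was 1.72% in Parental replicate 3 and 1.95% in Parental replicate 2, a wider spread than the 1.44% to 1.47% of the DD libraries. The members are therefore not separate replicates of a change.

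Reads on rows named as pseudogenes were compared with the reads of each gene, since sequences shared with such copies can be counted on either or on neither. There were 283 such rows, and 2 members (RPS13 and RPS25) had none. They held at least 20% of a gene's own reads in every depletion library for 8 genes and in every overexpression library for 2. For RPS10 they held 321% to 489% of the gene's own reads in the depletion experiment and 2.40% to 4.51% in the overexpression experiment. For RPS7 they held 113% to 131% and 7.91% to 9.12%, for RPS3A 96.8% to 101% and 21.9% to 43.0%, and for RPSA 64.8% to 67.5% and 1.98% to 3.11%. RPS2 had 73.4% to 79.6% and 43.3% to 46.0%, FAU 28.6% to 41.0% and 0.228% to 0.357%, and RPS15A 30.4% to 35.8% and 14.0% to 16.4%. For RPS14 they held 21.5% to 22.4% and 1.72% to 2.21%. The levels of these genes are therefore uncertain, and these shares were larger in the depletion experiment. RPS3A had a low level of its own in the overexpression experiment. Its means were 500 in control, 396 under ZC3H7A and 359 under ZC3H7B, against 14889 in Parental, so its fall there rests on a low level. RPS26 and RPS27, with pseudogene shares under 20% in every library, were low there too. Their means were 357 and 139 in control, against 2925 and 2352 in Parental, so their rises also rest on low levels. Adding the pseudogene reads to each gene, an alternative added after the values were seen, changed the call of no member in any comparison. It adds only reads counted on those rows. Reads counted on neither stay missing, so it cannot show whether their loss affected a call. With the pseudogene reads added, RPS10 was -0.30 in DD (adjusted p = 0.0548). RPS3A was then -0.25 with ZC3H7A, -0.29 with ZC3H7B and -0.45 in DD.

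Per kilobase of coding sequence, RPS16 had the highest level of the 28 genes in all 5 groups, at 93022 ± 1951 (SD, n = 3) in control and 116223 ± 6532 in Parental. Next in control came RPS19 at 75929.6 ± 2369.7 and RPS4X at 59196 ± 1554, of which the latter lay close to RPS14 at 56979.7 ± 1173, with overlapping spreads. The lowest in control were RPS27 at 553 ± 64.7 and RPS3A at 631 ± 11.3. In Parental the next highest were RPS4X at 105297 ± 3634 and RPS19 at 91895 ± 5882, and the lowest were RPS10 at 619.9 ± 95.5 and RPS12 at 6758 ± 723. Some genes thus took different places in the order of the 2 experiments. RPS3A was 27th or 28th in the overexpression groups and 18th in Parental and DD, and RPS12 was between 10th and 12th in the former and 27th in the latter. Line, protocol and depth differ between the experiments and cannot be told apart here.

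Most large-subunit genes rose with either protein and fell in DD. The shares of all genes called higher and lower, against which each list below is to be read, were 34.7% and 41.2% with ZC3H7A, 32.0% and 37.6% with ZC3H7B, and 14.7% and 14.8% in DD. With ZC3H7A 37 of 47 rose and 5 fell (median 0.36), with ZC3H7B 41 rose and 2 fell (median 0.36), and in DD none rose and 43 fell (median -0.45). Among those with the lowest adjusted p were RPL8 (1.19) and RPL35 (1.05) with ZC3H7A, and RPL13A (-1.23), RPL11 (-0.99) and RPL22 (-0.79) in DD. The gene for RACK1, a scaffold on the 40S head listed as GNB2L1, rose by 0.47 in both overexpressions and fell by 0.58 in DD. RPS27L, a paralog of RPS27, was at -0.00224 and 0.03 in the overexpressions, not called, and rose by 0.66 in DD, where RPS27 was at -0.47.

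Other mRNAs with a known TOP tract, mostly elongation and initiation factors, were mixed in the overexpressions. Of 28 tested, 13 rose and 11 fell with ZC3H7A (median 0.08), and 13 rose and 4 fell with ZC3H7B (median 0.04). With ZC3H7A that is 46.4% higher and 39.3% lower, of which the latter is near the 41.2% of all genes. In DD 20 fell and 1 rose (median -0.36), led by EIF4B (-1.08), NAP1L1 (-1.11) and NACA (-0.95). Genes for factors that mature the 40S subunit rose for 25 of 45 with each protein, while 14 fell with ZC3H7A and 11 with ZC3H7B. EMG1, an 18S rRNA methyltransferase, rose by 0.72 and 0.60. In DD 13 of these rose and 1 fell (median 0.15), among them the helicase DDX52 (0.62).

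Of the 12 genes for eIF3 subunits and eIF1 proteins, which bind the 40S subunit, 8 rose and 4 fell with ZC3H7A, 8 rose and 3 fell with ZC3H7B, and 2 rose and 4 fell in DD. EIF3K rose by 1.08 and EIF3G by 1.05 with ZC3H7A. Among 20 regulators of TOP mRNAs, 9 rose and 10 fell with ZC3H7A, 10 rose and 8 fell with ZC3H7B, and 3 rose and 3 fell in DD. In DD that is 15% in each direction, near the 14.7% and 14.8% of all genes, and with ZC3H7A it is 45% higher and 50% lower beside 34.7% and 41.2%. EIF4EBP1, the 4E-BP1 repressor downstream of mTOR, rose by 1.42 with ZC3H7A and 1.11 with ZC3H7B and fell by 0.98 in DD. MTOR itself fell by 0.50 with ZC3H7A, rose by 0.24 with ZC3H7B and fell by 0.73 in DD. LARP1, which binds TOP mRNAs, rose by 0.40 and 0.38 in the overexpressions and was at -0.16 in DD (adjusted p = 0.184), and it is named here outside the rule, after its values were seen.

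**Figure D5:**
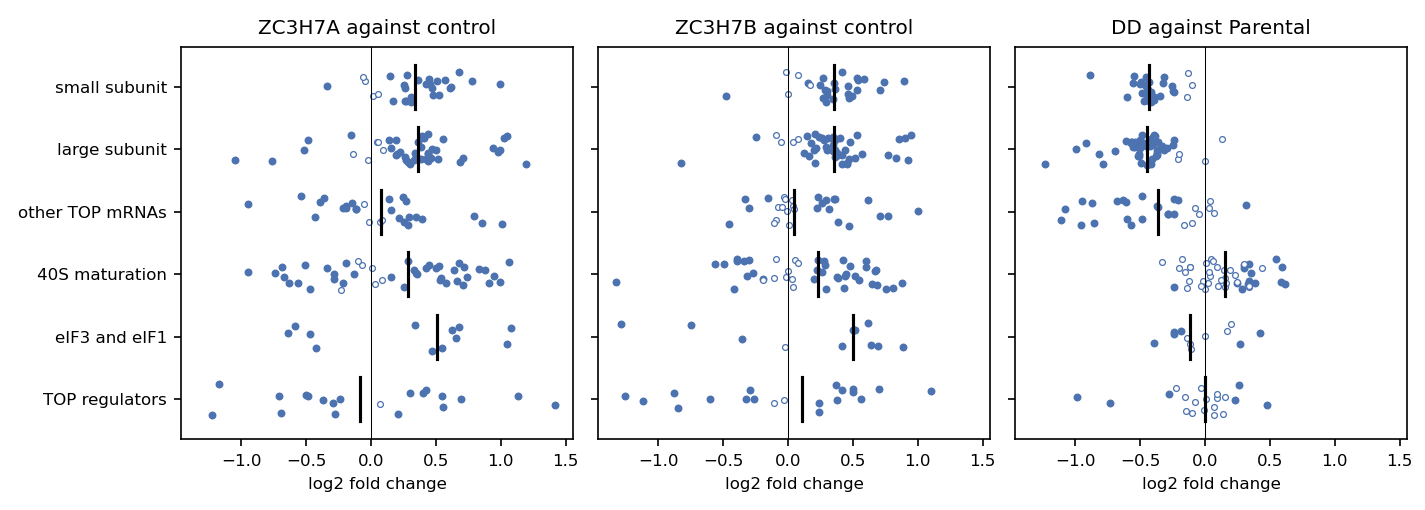
Log2 fold change (horizontal axis) of every tested gene in 6 lists (vertical axis) in 3 comparisons, with filled points for called genes, open points for others and a black line at the median. The medians of both subunits lie between 0.34 and 0.36 in the overexpressions and at -0.43 and -0.45 in DD. The other lists are spread over both sides of 0 in the overexpressions. In DD the other TOP mRNAs lie mostly below 0 as well, with a median of -0.36, 20 of 28 called lower and 1 higher. The median of the 40S maturation genes in DD is 0.15.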

How the data were processed

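The 15 RNA-seq libraries, all labelled as poly(A) RNA and made with different protocols in the 2 experiments, were read from 1 deposited table of 55773 rows, whose values are a signal, reads divided by a size factor per library, made by the authors. The submitters' processing notes name STAR 2.7.10b, then HTSeq and DESeq2, and the hg19 genome, and the settings, the annotation and the strand of counting are not given in the sources used here. In every library 100% of values lay within 0.01 of a whole number of reads, so whole reads were recovered, and 28 date-like or repeated row names were left out.

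Groups came from the sample labels. Genes that reached a value of 10 in 3 or more libraries were tested with limma 3.58.1 (R 4.3.3) on log2(value + 1), moderated by empirical Bayes with a mean-variance trend, two-sided, with Benjamini-Hochberg adjustment over all genes tested. The 9 overexpression libraries shared a fit, and the 6 depletion libraries had their own. All 28 members passed the filter in both. As alternatives, edgeR 4.0.16 and DESeq2 1.42.0 were run on the recovered reads. On simulated data of the ZC3H7A design, 52% of genes changed 1.25-fold and 100% of those changed 1.5-fold were called, among 17317 genes, and on those of the DD design 22% and 90.0%, among 18141. The simulations left 17117 and 17941 of these genes unchanged, whereas 75.9% and 29.4% of all genes tested were called in the data. The adjustment therefore differs, and the simulated rates need not hold for these data.

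Codon ends and lengths came from GENCODE 29 on GRCh38, to which row names were matched, 34273 by symbol and 1183 by an older symbol, and start windows came from RefSeq. An hg19 annotation was not used here, so a member's transcript may differ from the one counted. Length and A+T content were those of a single transcript per gene. Among the members its length ran from 296 bases in RPS29 to 3437 in RPS23. Values with the length or A+T trend removed depend on that choice of transcript. Members and lists were chosen with earlier results of these data known. All 28 members are named, those with the 4 largest rises or falls of a comparison or with opposite calls get the value of every library, and of each other list up to 3 genes per comparison with the lowest adjusted p may be named. Some genes of these lists are not printed.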

Additional observations from a re-analysis of the deposited data

Results flagged for a closer look

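For 6 genes the change with ZC3H7A differed from that with ZC3H7B in the direct test between the overexpressions (limma, adjusted over 17651 genes, of which 44.3% differed). RPS16 was higher with ZC3H7A by 0.41 on the log2 scale. The other 5 were lower with ZC3H7A, at -0.47 for RPS15, -0.28 for RPS23, -0.15 for RPS27A, -0.12 for RPS12 and -0.10 for RPS6. RPS16, RPS15 and RPS23 kept their calls in every alternative and with each library left out in turn. The other 3 did not, with adjusted p of 0.00723 to 0.151 for RPS27A, 0.00286 to 0.189 for RPS12 and 0.00411 to 0.593 for RPS6. No group reached 4 libraries, so no library could be tested as an outlier.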

How the results depend on the processing

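The number of members called higher ran from 20 to 24 over 16 settings with ZC3H7A and from 22 to 25 with ZC3H7B, and the number called lower in DD ran from 22 to 25 over 15 settings. Of all 17651 genes, 5158 were called higher with ZC3H7A on library totals and 6746 with TMM. With ZC3H7B these numbers were 4729 and 6638. In DD 2365 of 18473 genes were called lower with the replicate block and 2854 with edgeR. The settings covered the pseudocount, the filter, the scale, the test and trends with base content and length. 3 of them, the trends with coding length and with codon ends and the adding of pseudogene reads, were chosen after seeing the data. With ZC3H7A 4 members were called lower on library totals, 2 with the coding length trend removed and 0 with the trend on codons ending in A or T removed. All genes called lower were, in the same order, 8382 of 17651, 5316 of 13601 and 5157 of 13601. The members' median with ZC3H7A was 0.41 with TMM, 0.23 on library totals, 0.39 with DESeq2 and 0.26 with the A+T trend removed. With ZC3H7B it was 0.44 with TMM, 0.27 on library totals, 0.40 with median centring, 0.41 with edgeR, 0.40 with DESeq2, 0.29 with the A+T trend removed, 0.27 with the coding length trend removed and 0.30 with the codon-end trend removed. In DD it was -0.33 with the transcript length trend removed. Between the overexpressions 3 members differed with no filter, where 3932 of 38819 genes were called higher and 3345 lower. Of single members, RPS23 was at -0.0923 on library totals, RPS12 at -0.000242 with the A+T trend removed and RPS27A at 0.11 with the A+T trend removed, all with ZC3H7A. The cause was not tested. Calls were gained by RPS10 and RPS27A with ZC3H7B under TMM, median centring, edgeR and DESeq2, by RPS23 with ZC3H7A under the A+T and codon-end trends, by RPS7 with ZC3H7A under TMM and by FAU in DD without Parental replicate 3.

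Without mitochondrial RNAs in the total the members took 1.34% of reads in control, 1.73% with ZC3H7A, 1.70% with ZC3H7B and 1.49% in DD. With pseudogene rows added they took 1.31% in control, 1.67% with ZC3H7B, 2.23% in Parental and 1.73% in DD. Without the small non-coding RNAs they took 1.97% in Parental and 1.54% in DD.

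With 1 library left out, the members called between the overexpressions ran from 3 to 10 and all genes called higher in DD from 1556 (without DD replicate 1) to 3560. Between the overexpressions, all genes called higher ran from 3482 to 4852 and all genes called lower from 2821 to 4625. The members' medians ran from 0.32 to 0.38 with ZC3H7A, from 0.33 to 0.38 with ZC3H7B and from -0.48 to -0.37 in DD. Same-numbered libraries did not deviate together in every pair, and the labels do not tie them. Their correlations were -0.0499 to -0.0148 between DD and Parental, -0.0717 to 0.0421 between either overexpression and control, and 0.156, 0.0229 and 0.35 between the overexpressions for replicates 1, 2 and 3. With the replicate number as a block, 23 members rose with ZC3H7A, 22 with ZC3H7B (RPS26 lost its call), 23 fell in DD (RPS19 and RPS20 lost theirs) and 8 differed between the overexpressions (FAU and RPS29 gained a call). With that block 6150 of 17651 genes rose with ZC3H7A and 5672 with ZC3H7B, and 2365 of 18473 fell in DD. Between the overexpressions 4405 of 17651 genes were called higher and 3884 lower.

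The depletion libraries were shallower (12.2 to 15.5 M reads), and RPS10 there had 111 to 163 reads, which limits its precision.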
